A study of Homo sapiens with 18 samples.

Results

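The core of the RAS to ERK cascade was read here through 7 genes: the GTPases NRAS and HRAS, the RAF kinases ARAF and BRAF, the MEK kinases MAP2K1 and MAP2K2, and the ERK kinase MAPK3. They were picked by gene ID from the 40184 rows of a table of RNA-seq values, and all 7 were among the 16262 genes that entered the statistical model. Other members of these families were not analysed here. The table covers 18 cultures of 3 established human acute myeloid leukaemia lines. Molm-14 and MV4-11 carry the FLT3-ITD genotype, an internal tandem duplication in the receptor tyrosine kinase FLT3, and SKNO-1 carries KIT N822K, a change in the receptor tyrosine kinase KIT. The cultures were given the vehicle DMSO or RMC-4550 at 500 nM and were taken after 24 h, which makes 6 groups of 3. GM-CSF at 10 ng/mL was in the medium of SKNO-1 only, and its part in any difference of SKNO-1 cannot be told apart from that of the line. The replicates are labelled as biological, and each FLT3 or KIT genotype is represented by established lines, not by edited clones of a single line.

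RAS proteins are switches at the cell membrane that bind GTP when a growth factor receptor is active. GTP-bound RAS brings RAF kinases to the membrane, RAF phosphorylates MEK, and MEK phosphorylates ERK, which acts on transcription factors and other kinases. RMC-4550 inhibits SHP2 (gene PTPN11) allosterically. SHP2 is a phosphatase that RAS needs for its activation by receptors such as FLT3 and KIT. The pathway is controlled mainly by phosphorylation and GTP loading, neither of which RNA-seq reads, so the values below are transcript levels only. The comparisons ask how much RNA of each cascade gene the untreated lines held, and whether the RNA of the cascade itself changed with the inhibitor.

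In bulk RNA, fewer cells of a type and less RNA per cell cannot be told apart. Libraries held 17434810 to 19959917 reads, and a cascade gene had 210 to 8430 reads in a library. All 7 myeloid markers found in the table were read at 1 CPM or more on average in every group (CPM, reads per 1000000 reads of the scaled library), with summed levels of 1265 to 1740 CPM. RUNX1T1, part of the fusion that marks SKNO-1, was at 11.8 to 13.8 CPM on average in the SKNO-1 groups, and at no more than 1 read in a library of the other lines. Markers of T cells were at or near 0 in every group. Libraries did stand apart in another way: reads of mitochondrial genes made up 5.07% to 7.02% of 14 libraries and 10.5% to 15.02% of the other 4. Those 4 were replicate 2 of Molm-14 with RMC-4550, replicates 1 and 3 of MV4-11 with DMSO, and replicate 1 of MV4-11 with RMC-4550. They are called the high-mitochondrial libraries below, and the results of the 7 genes and the counts of the pathway lists are also given without them where they differ. That leaves 1 MV4-11 library with DMSO, which the fit takes to vary like the others.

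The promoters of the RAF pair, the MEK pair and MAPK3 are shown because the ratios within the RAF and the MEK pair are described below, and because MAPK3 differed most between the lines. Each sequence is the longest stretch without an annotated GENCODE 29 exon in the 250 bases before the RefSeq start, on GRCh38.p14, read 5′ to 3′ on the gene's strand. Capitals mark matches to the motifs listed after them. The BRAF and MAPK3 stretches lie inside their GENCODE 29 genes, which start at bases 140924928 and 30123506 on the minus strand. The stretches are chrX:47560955-47561099 (plus strand) for ARAF, chr7:140924269-140924518 (minus strand) for BRAF, chr15:66386747-66386816 (plus strand) for MAP2K1, chr19:4124130-4124372 (minus strand) for MAP2K2 and chr16:30123310-30123470 (minus strand) for MAPK3.
ARAF: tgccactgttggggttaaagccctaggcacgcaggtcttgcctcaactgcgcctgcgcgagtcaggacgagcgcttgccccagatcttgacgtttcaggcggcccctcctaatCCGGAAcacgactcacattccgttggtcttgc
BRAF: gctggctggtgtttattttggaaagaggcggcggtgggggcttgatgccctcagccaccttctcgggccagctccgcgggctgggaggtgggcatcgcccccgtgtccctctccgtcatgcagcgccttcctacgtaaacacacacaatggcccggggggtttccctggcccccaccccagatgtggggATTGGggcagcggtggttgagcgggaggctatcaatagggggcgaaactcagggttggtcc
MAP2K1: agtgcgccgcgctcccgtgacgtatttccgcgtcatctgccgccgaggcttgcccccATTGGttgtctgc
MAP2K2: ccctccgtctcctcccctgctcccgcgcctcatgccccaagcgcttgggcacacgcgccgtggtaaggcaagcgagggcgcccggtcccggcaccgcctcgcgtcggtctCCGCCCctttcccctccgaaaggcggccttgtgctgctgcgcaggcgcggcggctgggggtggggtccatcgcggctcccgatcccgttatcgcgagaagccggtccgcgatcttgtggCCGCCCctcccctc
MAPK3: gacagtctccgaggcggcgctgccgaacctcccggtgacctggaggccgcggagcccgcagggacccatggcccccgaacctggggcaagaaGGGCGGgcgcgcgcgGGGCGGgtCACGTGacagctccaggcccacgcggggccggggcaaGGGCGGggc

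Over the whole 250-base windows, both strands were searched for the GC box GGGCGG, the TATA box TATAAA, the CCAAT box CCAAT, the cyclic AMP element TGACGTCA, the ETS core CCGGAA, the AP-1 site TGAGTCA and the E-box CACGTG. A GC box was present in NRAS, HRAS, MAP2K1, MAP2K2 and MAPK3, with 6 matches in MAPK3, 3 in HRAS, 3 in MAP2K1, 2 in NRAS and 2 in MAP2K2. The ARAF and BRAF windows held none, and 42.6% of 35116 RefSeq promoters held at least 1. ARAF and HRAS had an ETS core, which 14.5% of promoters hold, and NRAS and MAPK3 had an E-box, which 6.34% hold. CCAAT boxes were found in HRAS, ARAF, BRAF and MAP2K1, against 32% of all promoters. No window held the TATA box, cyclic AMP element or AP-1 letters, which 10.7%, 1.65% and 4.2% of promoters held. GC content of the windows ran from 54.4% in NRAS to 80.4% in MAPK3, and the median over all promoters was 58%. These matches are letters in a window and describe neither binding nor control.

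Per length of transcript, MAP2K2 was by far the most abundant cascade gene in all 6 groups. With DMSO its level was 112 ± 4.04 CPM per kilobase for Molm-14, 131 ± 9.24 for MV4-11 and 109 ± 5.27 for SKNO-1 (SD, n = 3 here and below). The next gene was NRAS in Molm-14, at 29.5 ± 0.61 CPM per kilobase, ARAF in MV4-11, at 25.2 ± 5.47, and MAPK3 in SKNO-1, at 39.2 ± 1.74. In MV4-11 ARAF and MAPK3, at 24.8 ± 2.56 CPM per kilobase, did not differ beyond their spread, and nor did NRAS, HRAS and MAP2K1, at 16.2 ± 7.37, 15.1 ± 3.38 and 13.7 ± 2.96. The single MV4-11 library with DMSO under 10% mitochondrial reads had 120.5 CPM per kilobase of MAP2K2, 31.6 of ARAF, 27.5 of MAPK3, 24.7 of NRAS, 17.1 of MAP2K1 and 11.3 of HRAS, so HRAS and MAP2K1 changed places. BRAF was lowest in every group, at 5.10 to 8.80 CPM per kilobase. These levels used the longest annotated transcript of each gene, which for BRAF has 9578 bases. With the median transcript length MAP2K2 still ranked first in every group, but BRAF rose to the fourth or the fifth place and NRAS or HRAS was last.

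**Figure D1:**
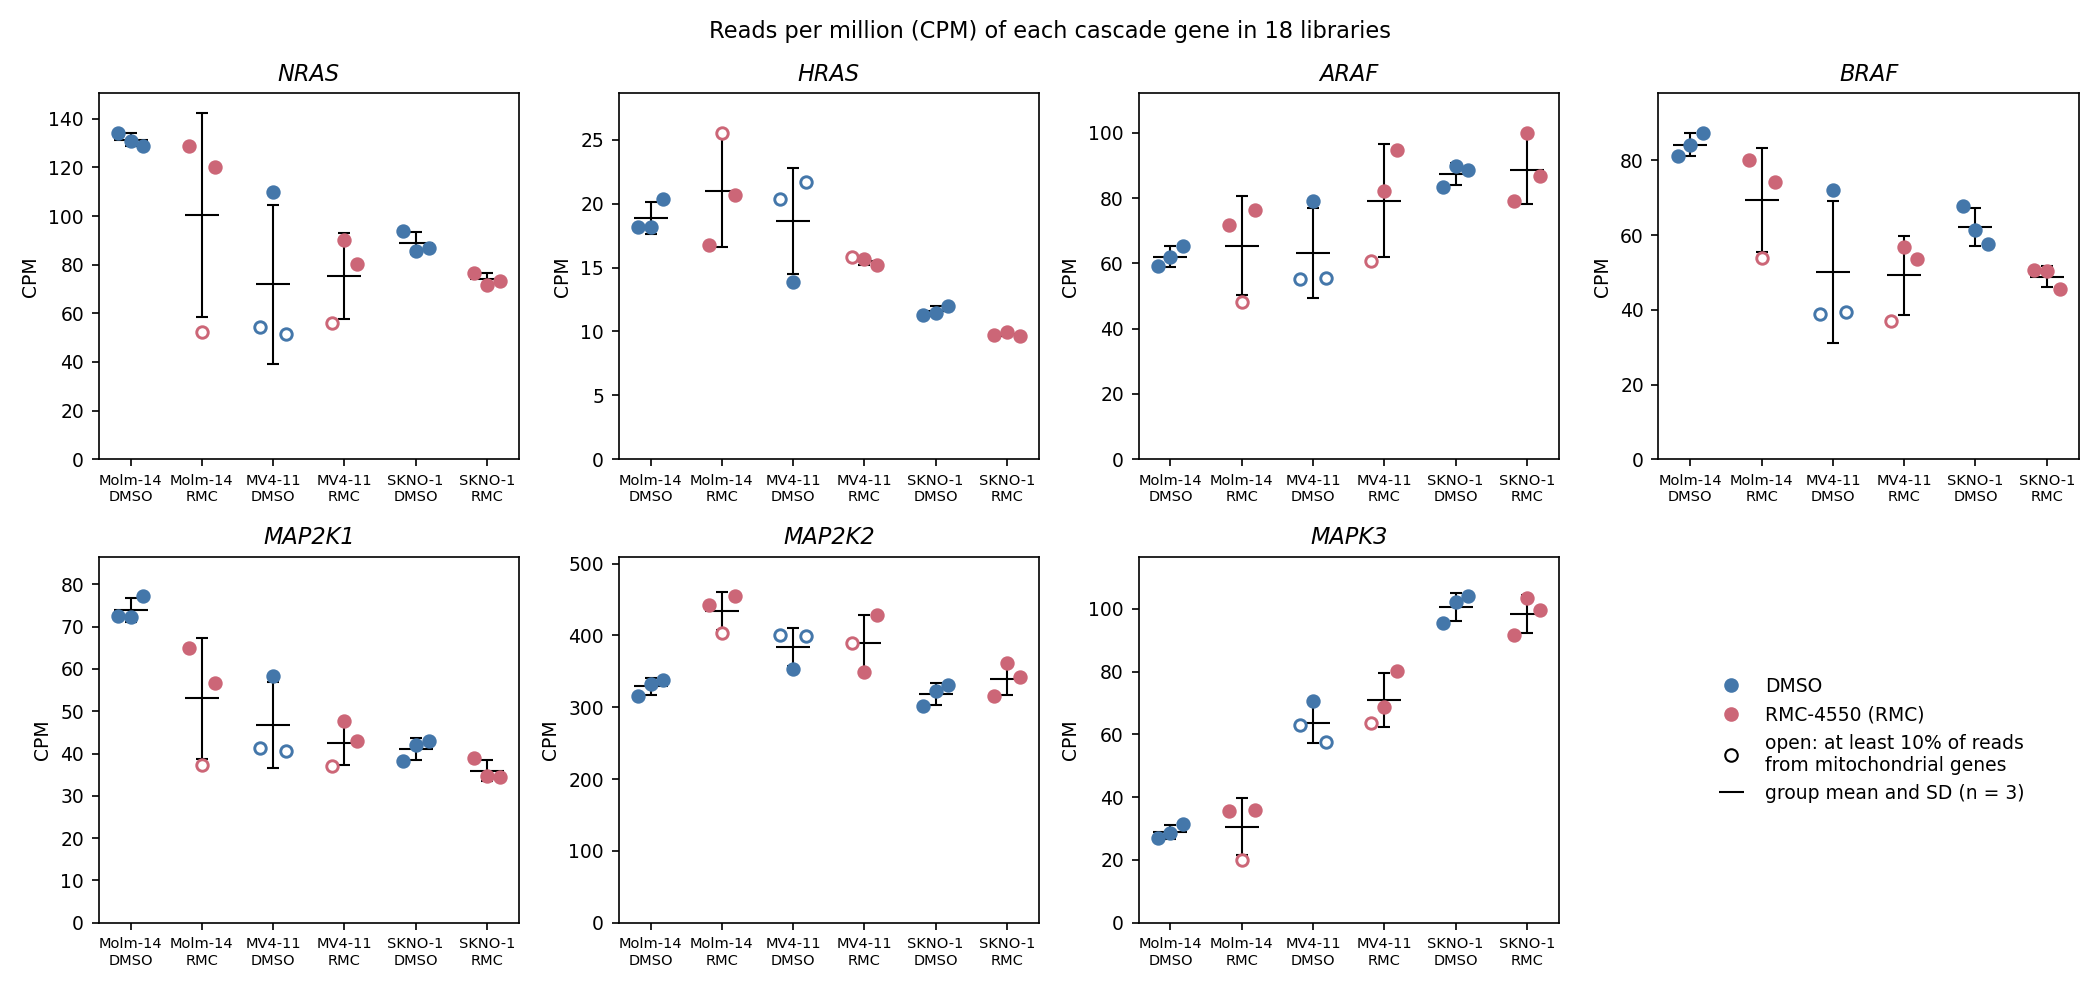
Level of each gene in CPM (vertical axis, from 0) in the 18 libraries, by line and treatment (horizontal axis; RMC is RMC-4550). Points are libraries, open points are the 4 high-mitochondrial libraries, and bars are the group mean and SD (n = 3). MAPK3 separates the 3 lines with DMSO, and the open points of NRAS lie near 50 CPM in both lines that hold them.

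Among the untreated lines the widest difference lay at the bottom of the cascade. MAPK3, which encodes ERK1, was read with DMSO at 26.9, 28.6 and 31.3 CPM in Molm-14, at 63.0, 70.7 and 57.6 CPM in MV4-11, and at 95.5, 102 and 104 CPM in SKNO-1. The 3 lines did not overlap. How many of all genes separated the 3 lines in this way was not counted. SKNO-1 held 3.47-fold more MAPK3 RNA than Molm-14 (log2 difference 1.80, SE 0.17, limma adjusted p = 1.1e-07). MV4-11 lay between them: Molm-14 was below it by a log2 difference of -1.14 (adjusted p = 4.3e-05) and SKNO-1 above it by 0.66 (adjusted p = 0.0060). Without the high-mitochondrial libraries those differences were 1.80, -1.29 and 0.51, and all 3 were called (adjusted p = 3.7e-13, 1.6e-08 and 0.00057). The MAPK3 difference was also called in each fit that left out 1 library.

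The RAS genes differed in another pattern, and both were lower in SKNO-1 than in Molm-14 in each library. Of all genes 64.7% were called between these lines, and the share without overlap is not given. Below, such a share is given only for genes lower in SKNO-1 with RMC-4550, so lack of overlap elsewhere is description only. For NRAS the log2 difference was -0.57, not called over all libraries (SE 0.30, adjusted p = 0.11) and called without the high-mitochondrial libraries (adjusted p = 6.1e-08), at the same size since neither group holds one. HRAS, whose protein cycles between the cell membrane and the Golgi, was at 18.2, 18.2 and 20.3 CPM in Molm-14, at 20.3, 13.9 and 21.7 CPM in MV4-11 and at 11.3, 11.5 and 12.01 CPM in SKNO-1, all with DMSO. Every SKNO-1 library was below every library of the other lines. SKNO-1 was lower by a log2 difference of -0.70 against Molm-14 (SE 0.15, adjusted p = 0.00083) and of -0.66 against MV4-11 (adjusted p = 0.0031). Against the single MV4-11 library under 10% mitochondrial reads the difference was -0.27 and was not called (adjusted p = 0.10). HRAS in Molm-14 was then called above MV4-11 (0.44, adjusted p = 0.0076). NRAS, which encodes a RAS protein that is a frequent target of activating mutations in myeloid leukaemia, was at 134, 131 and 129 CPM in Molm-14, at 54.5, 110 and 51.5 CPM in MV4-11, and at 94.0, 85.5 and 87.0 CPM in SKNO-1. Molm-14 was above MV4-11 by 0.96 on the log2 scale (SE 0.30, adjusted p = 0.014), and this shrank to 0.26 (adjusted p = 0.011) without the high-mitochondrial libraries. The call was lost when only replicate 1 or only replicate 3 of MV4-11 was left out (0.81 and 0.76, adjusted p = 0.066 and 0.071). For SKNO-1 against MV4-11 the NRAS difference turned from 0.39 (adjusted p = 0.30) to -0.31 (adjusted p = 0.0047) when those libraries were left out.

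At the RAF level, ARAF with DMSO was at 59.1, 61.8 and 65.3 CPM in Molm-14, at 55.2, 79.0 and 55.5 CPM in MV4-11 and at 83.5, 89.9 and 88.6 CPM in SKNO-1. All SKNO-1 libraries were above all others, with a log2 difference of 0.49 against Molm-14 (adjusted p = 0.028) and 0.49 against MV4-11 (adjusted p = 0.045). When single libraries were left out, the first was called in 2 of 6 fits (0.46 to 0.53) and the second in 1 of 6 (0.40 to 0.66). Without the high-mitochondrial libraries the first was called at the same size (adjusted p = 1.6e-05) and the second was 0.14 and not called (adjusted p = 0.31), while ARAF in Molm-14 was called below MV4-11 (-0.35, adjusted p = 0.013). BRAF, whose kinase is the most active of the RAF family, was at 81.2, 84.1 and 87.4 CPM in Molm-14, at 39.0, 72.2 and 39.5 CPM in MV4-11 and at 67.8, 61.3 and 57.5 CPM in SKNO-1. Molm-14 exceeded MV4-11 by 0.81 (adjusted p = 0.0044), or by 0.22 (adjusted p = 0.052) with the 1 MV4-11 library under 10%. Both low MV4-11 values were from the high-mitochondrial libraries. SKNO-1 was below Molm-14 by a BRAF difference of -0.44, not called over all libraries (adjusted p = 0.077) and called without those 4 (adjusted p = 8.8e-06). Against MV4-11 the difference turned from 0.37 to -0.22 without them, and neither was called (adjusted p = 0.17 and 0.068).

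Of the MEK genes, MAP2K1 was highest in Molm-14 and MAP2K2 in MV4-11. MAP2K1, which encodes MEK1, was at 72.5, 72.2 and 77.2 CPM in Molm-14, at 41.3, 58.5 and 40.6 CPM in MV4-11 and at 38.2, 42.1 and 42.9 CPM in SKNO-1. The lowest Molm-14 library was above every library of the other lines. SKNO-1 was lower than Molm-14 by a log2 difference of -0.85 (SE 0.17, adjusted p = 0.00042), and Molm-14 was higher than MV4-11 by 0.68 (adjusted p = 0.0038), or by 0.34 (adjusted p = 0.0098) without the high-mitochondrial libraries. Between SKNO-1 and MV4-11 the difference was -0.17 (adjusted p = 0.45), and -0.51 and called without them (adjusted p = 0.00062). MAP2K2, which encodes MEK2, had group means between 318 and 434 CPM over all 6 groups. It was lower in Molm-14 than in MV4-11 by a log2 difference of -0.22 (adjusted p = 0.049) and lower in SKNO-1 than in MV4-11 by -0.27 (adjusted p = 0.026), and neither was called without the high-mitochondrial libraries (-0.10 and -0.15, adjusted p = 0.40 and 0.24). With single libraries left out these were called in 1 of 6 and 2 of 6 fits. SKNO-1 and Molm-14 overlapped in MAP2K2 (-0.048, adjusted p = 0.66).

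Of the 7 genes, 5 were called at an adjusted p under 0.05 between Molm-14 and MV4-11, where 53.4% of all genes tested were called. Between SKNO-1 and Molm-14 the count was 4, against 64.7% of all genes, and between SKNO-1 and MV4-11 it was 4, against 41.1%. The share of the 7 genes was above that of all genes in the first and the third comparison and below it in the second, and these differences were not tested. The counts were 5 (50.8% of all genes), 6 (80.3%) and 3 (40.7%) when the high-mitochondrial libraries were left out. In the first, BRAF and MAP2K2 lost their calls and HRAS and ARAF gained one. In the second, NRAS and BRAF were gained. In the third, HRAS, ARAF and MAP2K2 lost their calls and NRAS and MAP2K1 gained one.

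With RMC-4550 the difference of largest size over all libraries was -0.52, for MAP2K1 in Molm-14. In that line MAP2K2 rose and MAP2K1 fell, and no other gene of the 7 was called. That makes 2 of 7, where 46.7% of 13971 genes were called, 21.5% higher and 25.2% lower. In MV4-11 and in SKNO-1 limma called 0 of the 7 genes, where 13.9% and 27.1% of all genes were called. Leaving out the high-mitochondrial libraries gave 4 of 7 in Molm-14 (58.7% of all genes), 3 in MV4-11 (28.4%) and 4 in SKNO-1 (53.3%). Over all libraries, at an unadjusted p under 0.05, the counts for the 7 genes were also 0 in both lines, and the fit with voom weights gave 0 in both. Over the 7 genes the median log2 difference was 0.033 for Molm-14, 0.016 for MV4-11 and -0.19 for SKNO-1, against -0.058, -0.010 and -0.047 over all genes tested. Since the 3 lines share 1 estimate of the spread, the high-mitochondrial libraries of Molm-14 and MV4-11 also set the error of the SKNO-1 comparison, although SKNO-1 holds none of them.

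MAP2K2 in Molm-14 went from 316, 333 and 338 CPM with DMSO to 442, 404 and 455 CPM with RMC-4550. The lowest treated library lay above the highest DMSO library. The rise was 1.32-fold (log2 difference 0.40, 95% confidence interval 0.21 to 0.59, SE 0.090, adjusted p = 0.0020), and it was 0.45 (adjusted p = 9.0e-05) without the high-mitochondrial library. It lay at percentile 76.1 of the differences of all genes in that line. In MV4-11 the treated libraries, at 389, 349 and 428 CPM, overlapped the DMSO libraries, at 400, 353 and 399 CPM, with a log2 difference of 0.016 (interval -0.17 to 0.21), or 0.13 (adjusted p = 0.37) without the high-mitochondrial libraries. In SKNO-1 the treated libraries, at 315, 361 and 342 CPM, overlapped those with DMSO, at 301, 323 and 331 CPM, with a difference of 0.092 (interval -0.099 to 0.28). The MAP2K2 response was 0.38 higher in Molm-14 than in MV4-11 on the log2 scale (SE 0.13, adjusted p = 0.047), the 1 call of 7 in a contrast where 19.5% of all genes were called. It was 0.31 (adjusted p = 0.10) without the high-mitochondrial libraries, and the call was also lost in the fit without the SKNO-1 samples (adjusted p = 0.11). When single libraries were left out it was called in 4 of 12 fits, with differences of 0.31 to 0.45. Against the mean response of the other lines, SKNO-1 differed in 0 of 7 genes by limma, where 3.8% of all genes were called, with 0 at an unadjusted p under 0.05 and 0 with voom weights.

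MAP2K1 moved the other way in Molm-14, from 72.5, 72.2 and 77.2 CPM with DMSO to 65.0, 37.3 and 56.7 CPM with RMC-4550. The groups did not overlap, and the lowest value was the high-mitochondrial library. The log2 difference was -0.52 (interval -0.88 to -0.15, SE 0.17, adjusted p = 0.022). It was not called in a fit of Molm-14 alone (adjusted p = 0.081), without replicate 3 with DMSO (-0.49, adjusted p = 0.068), or without the high-mitochondrial replicate 2 with RMC-4550 alone (-0.28, adjusted p = 0.13). When all 4 high-mitochondrial libraries were left out it was -0.28 and called (adjusted p = 0.0056). In the same fit MAP2K1 was also lower in MV4-11, by a log2 difference of -0.37 (adjusted p = 0.016), and in SKNO-1, by -0.19 (adjusted p = 0.032). In the fit over all libraries those differences were -0.12 (interval -0.49 to 0.24) and -0.19 (interval -0.56 to 0.18). MV4-11 values were 41.3, 58.5 and 40.6 CPM with DMSO and 37.0, 47.7 and 42.9 CPM with RMC-4550, and SKNO-1 values were 38.2, 42.1 and 42.9 CPM against 38.9, 34.6 and 34.5 CPM. Treated and DMSO libraries overlapped in both of these lines.

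**Figure D2:**
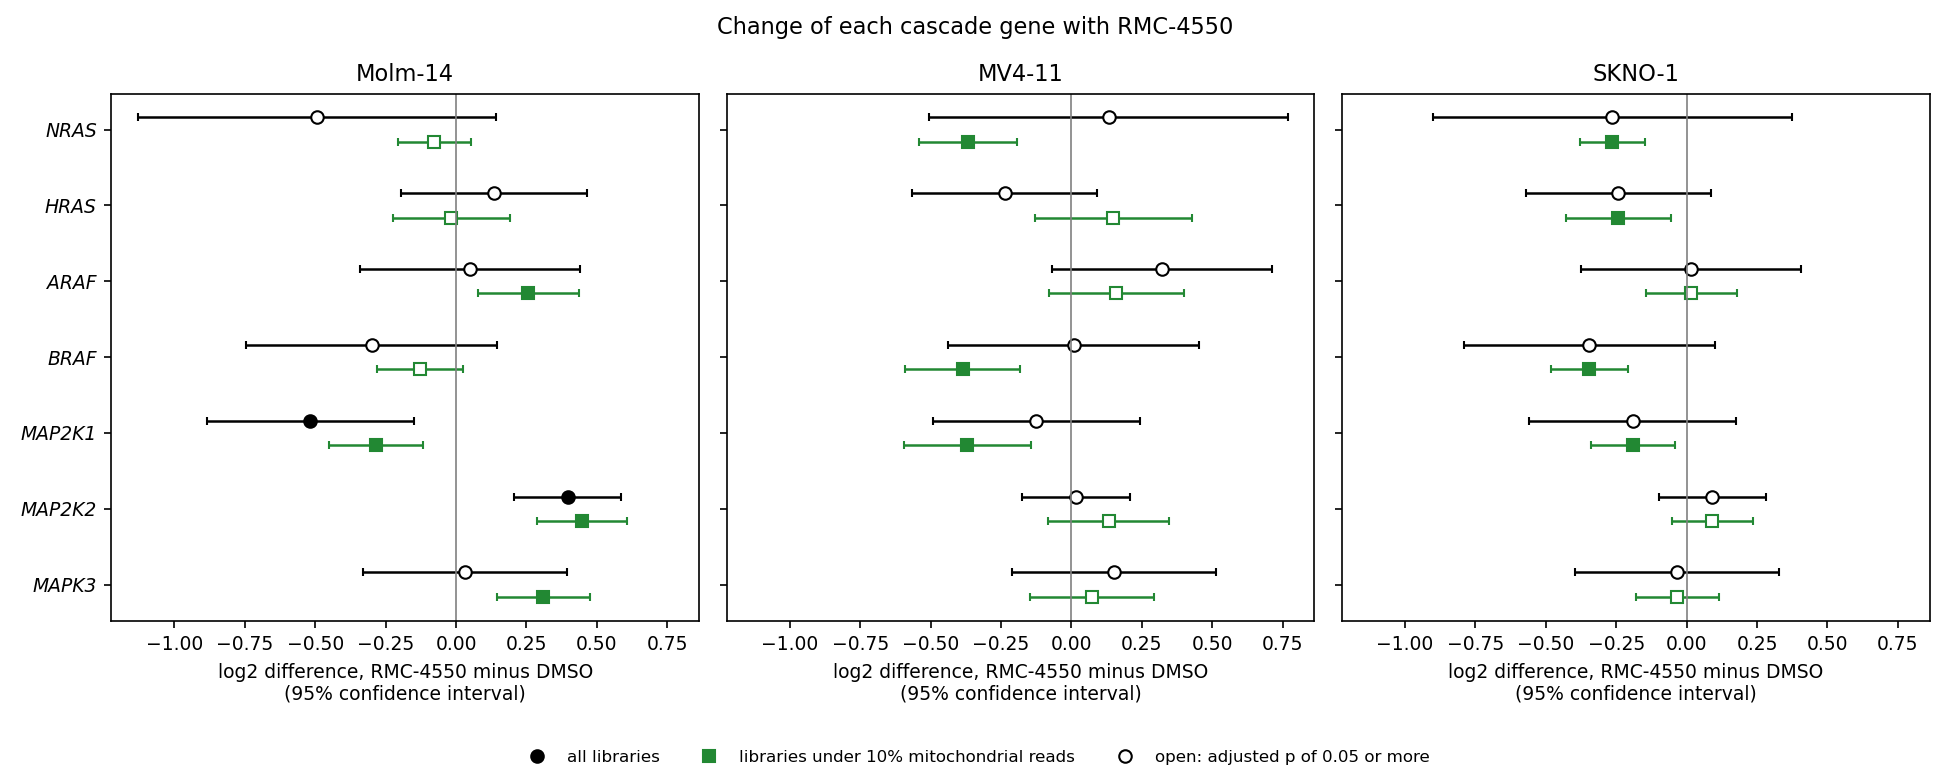
Log2 difference of RMC-4550 minus DMSO for each gene (rows) in each line (panels), with 95% confidence intervals. Black circles are the fit over all 18 libraries and green squares the fit over the 14 libraries under 10% mitochondrial reads; filled symbols had an adjusted p under 0.05. The green intervals are narrower, and MAP2K1 lies below 0 with a filled square in all 3 lines.

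NRAS in SKNO-1 went from 94.0, 85.5 and 87.0 CPM with DMSO to 76.8, 71.8 and 73.3 CPM with RMC-4550, a log2 difference of -0.26. HRAS went from 11.3, 11.5 and 12.01 CPM to 9.72, 9.97 and 9.65 CPM, a difference of -0.24, and BRAF from 67.8, 61.3 and 57.5 CPM to 50.7, 50.4 and 45.6 CPM, a difference of -0.35. In these 3 genes every treated library was below every DMSO library, which held for 35.4% of all genes in that comparison. None was called over all libraries (adjusted p = 0.57, 0.27 and 0.25). The SE for NRAS was 0.30 in that fit and 0.055 in the fit over libraries under 10%, where the differences were the same and NRAS, HRAS, BRAF and MAP2K1 were all called lower (adjusted p = 0.00073, 0.028, 0.00028 and 0.032). That count of 4 stands beside 32.1% of all genes called lower in that fit. The same count of 4 was found in a fit of SKNO-1 alone, where 33.2% of all genes were called lower. ARAF with the drug was at 79.1, 100.02 and 86.8 CPM in SKNO-1 and MAPK3 at 91.6, 104 and 99.7 CPM, and both overlapped the DMSO libraries. They differed by 0.016 (interval -0.37 to 0.41) and -0.034 (interval -0.40 to 0.33).

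In Molm-14 the treated high-mitochondrial library had the lowest NRAS level, 52.5 CPM against 129 and 120 CPM in the other treated libraries and 129 to 134 CPM with DMSO. The log2 difference of -0.49 (interval -1.13 to 0.14, adjusted p = 0.19) became -0.078 (interval -0.21 to 0.052) without it. BRAF, at 80.1, 53.8 and 74.3 CPM with the drug, differed by -0.30 (interval -0.75 to 0.15) and by -0.13 without that library. HRAS, at 16.8, 25.6 and 20.7 CPM, differed by 0.13 (interval -0.19 to 0.46), and by -0.017 without it. ARAF and MAPK3 showed the reverse: the high-mitochondrial library was the lowest, at 48.0 and 20.1 CPM, and the difference grew from 0.049 to 0.26 for ARAF (adjusted p = 0.016) and from 0.033 to 0.31 for MAPK3 (adjusted p = 0.0026) without it. ARAF was then at 71.9 and 76.5 CPM against 59.1 to 65.3 CPM with DMSO, and MAPK3 at 35.7 and 36.0 CPM against 26.9 to 31.3 CPM. Without the high-mitochondrial libraries 4 of the 7 genes were called in Molm-14, 3 higher and 1 lower, where 58.7% of all genes were called, 26.6% higher and 32.1% lower.

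MV4-11 had 3 high-mitochondrial libraries of 6, and the differences of NRAS and BRAF changed sign without them. Both also changed sign when only replicate 2 with RMC-4550, a library under 10%, was left out (-0.010 and -0.11). NRAS was at 54.5, 110 and 51.5 CPM with DMSO and 55.9, 90.2 and 80.3 CPM with RMC-4550, and the log2 difference was 0.13 over all libraries (interval -0.50 to 0.77). Among libraries under 10% it was -0.37 (adjusted p = 0.0036), and between the high-mitochondrial libraries it was 0.078. BRAF was at 39.0, 72.2 and 39.5 CPM with DMSO and 37.1, 56.9 and 53.6 CPM with the drug. Its difference was 0.0086 over all libraries (interval -0.44 to 0.45), -0.39 under 10% (adjusted p = 0.0074) and -0.081 between the high-mitochondrial libraries. With MAP2K1, that made 3 of 7 genes lower in the fit under 10%, where 19.6% of all genes were called lower, from 1 DMSO library against 2 treated ones. With the drug HRAS was at 15.8, 15.7 and 15.2 CPM, ARAF at 60.7, 82.3 and 94.7 CPM and MAPK3 at 63.5, 68.8 and 80.3 CPM, all within or overlapping the range of the DMSO libraries. HRAS differed by -0.24 (interval -0.57 to 0.093), ARAF by 0.32 (interval -0.068 to 0.71) and MAPK3 by 0.15 (interval -0.21 to 0.51) over all libraries. Under 10% these were 0.15, 0.16 and 0.073, with HRAS turned in sign, and none was called (adjusted p = 0.44, 0.33 and 0.66).

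The same 4 libraries showed how unevenly the cascade genes varied within a group. NRAS in the high-mitochondrial libraries was below the other libraries of its group by 2.37-fold in Molm-14 with RMC-4550, 2.07-fold in MV4-11 with DMSO and 1.52-fold in MV4-11 with RMC-4550. Those log2 differences lay at percentiles 5.03, 4.52 and 10.1 of all 16262 genes. BRAF differed by -0.52, -0.88 and -0.57 on the log2 scale in the same order, HRAS by 0.46, 0.59 and 0.033, and MAP2K2 by -0.15, 0.18 and 0.0097. NRAS and BRAF have the longest transcripts of the 7, at 4449 and 9578 bases, and the lowest GC content, at 38.4% and 40.0%. HRAS has the shortest, at 1233 bases, and the highest GC content, at 65.8%. MAP2K1, at 3410 bases and 50.4% GC, differed by -0.70, -0.51 and -0.29. ARAF and MAPK3, at 58.9% and 61.4% GC, were also lower in all 3 groups. The part of RNA quality or GC content in these values was not tested.

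**Figure D3:**
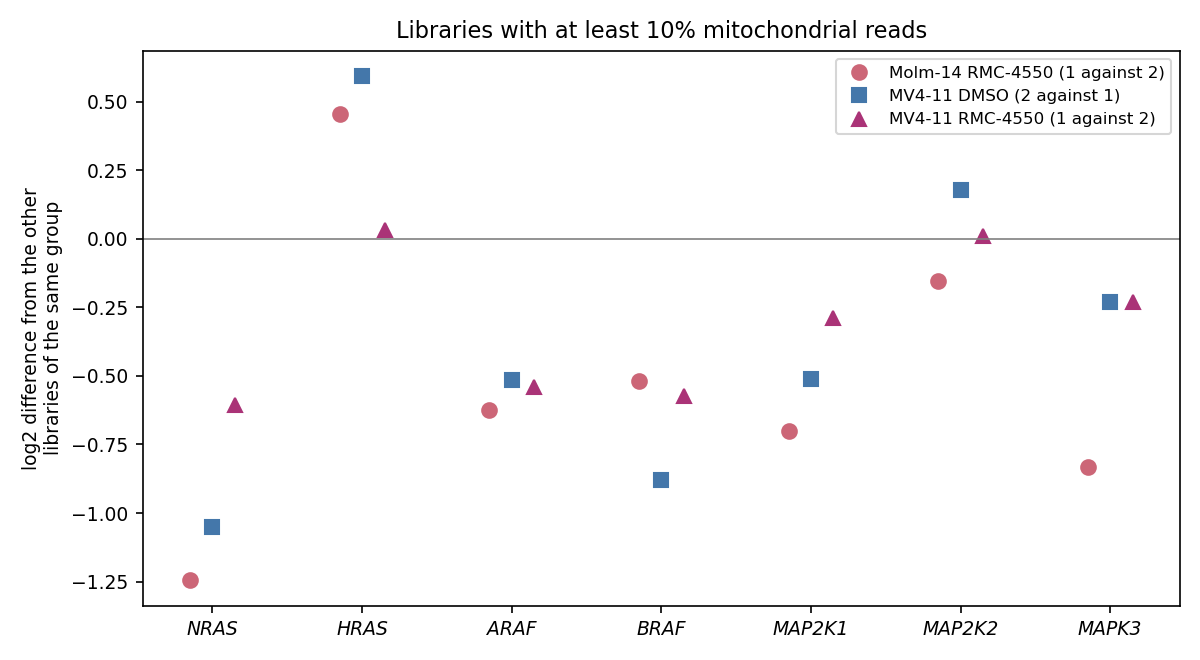
Log2 difference between the high-mitochondrial libraries and the other libraries of the same group (vertical axis) for each gene (horizontal axis), in the 3 groups that hold both kinds; the legend gives the number of libraries on each side. NRAS is lowest in all 3 groups, and HRAS lies above 0 in all 3.

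A ratio of related genes within a library does not depend on the scaling between libraries. These ratios are per length of the longest transcript, on the log2 scale, and they are given without a test. ARAF over BRAF was higher with RMC-4550 in all 3 lines. It went from 1.49 ± 0.020 to 1.84 ± 0.12 in Molm-14, from 2.31 ± 0.21 to 2.62 ± 0.14 in MV4-11 and from 2.43 ± 0.17 to 2.79 ± 0.19 in SKNO-1. These are differences of 0.35, 0.31 and 0.36, and in no line did the treated libraries overlap the DMSO libraries. How often the ratios of other gene pairs lacked overlap was not examined. Without the high-mitochondrial libraries they were 0.38, 0.55 and 0.36. The single high-mitochondrial library of Molm-14 had a ratio of 1.77, beside 1.78 and 1.98 in the other treated libraries, although both genes were low in it. In MV4-11 with DMSO the high-mitochondrial libraries stood apart, at 2.44 and 2.43 against 2.07 in the other. With RMC-4550 the high-mitochondrial library of MV4-11 had 2.65, beside 2.47 and 2.76. The part of these libraries in the ratio was not tested.

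MAP2K2 over MAP2K1 was 2.37 ± 0.046 with DMSO and 3.29 ± 0.34 with RMC-4550 in Molm-14, a difference of 0.91, or 0.73 without the high-mitochondrial library, and the groups did not overlap in either. As linear ratios the DMSO libraries held 5.07 to 5.37 times as much MAP2K2 as MAP2K1 per length, and the treated libraries 7.92 to 12.6 times. In SKNO-1 the ratio went from 3.18 ± 0.023 to 3.46 ± 0.19, also without overlap. In MV4-11 it was 3.27 ± 0.40 and 3.41 ± 0.28, with overlap, a difference of 0.14 that was 0.50, without overlap, when the high-mitochondrial libraries were left out. HRAS over NRAS lay between -1.21 and -0.55 in the 14 libraries under 10% and between 0.029 and 0.81 in the other 4. Its difference between treatments was 0.63 for Molm-14, -0.37 for MV4-11 and 0.021 for SKNO-1, with overlap in each line. Among libraries under 10% it was 0.060 in Molm-14, with overlap, and 0.52 in MV4-11, where the sign turned and the 2 treated libraries lay above the 1 with DMSO.

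**Figure D4:**
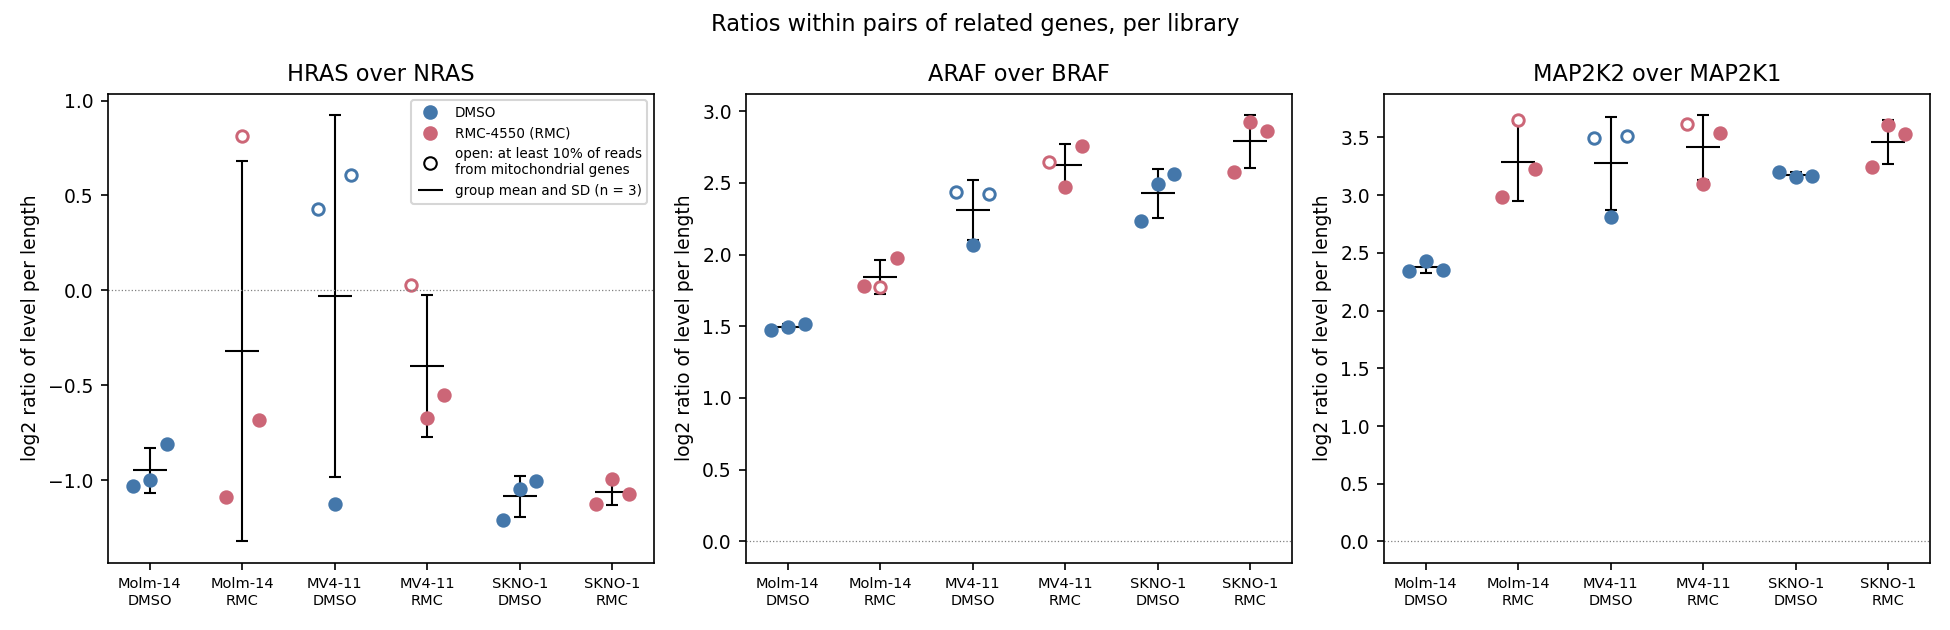
Log2 ratio per transcript length of HRAS over NRAS, ARAF over BRAF and MAP2K2 over MAP2K1 (vertical axes) in each library, by line and treatment (horizontal axis); open points are the high-mitochondrial libraries and bars the group mean and SD (n = 3). Treated libraries lie above DMSO libraries for ARAF over BRAF in each line, and the open points of HRAS over NRAS lie above the filled ones.

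Around the core, transcripts known to follow ERK activity were called lower or not called. Of 10 such genes, all 8 tested in Molm-14 were called lower (25.2% of all genes), as were 4 of 8 in MV4-11 (8.03%) and 6 of 7 in SKNO-1 (16.2%). These counts became 8 of 8, 5 of 7 and 7 of 7 without the high-mitochondrial libraries, beside 32.1%, 19.6% and 32.1% of all genes. Median log2 differences of the list were -1.86 for Molm-14, -1.03 for MV4-11 and -1.52 for SKNO-1. ETV4, an ETS family transcription factor, fell in each line, with differences of -3.47 for Molm-14, -1.63 for MV4-11 and -3.28 for SKNO-1 (limma adjusted p = 7.3e-08, 0.00053 and 2.2e-07). DUSP6, a phosphatase that removes the activating phosphates of ERK, also fell, with -0.62, -0.93 and -1.30 in that order (adjusted p = 0.0076, 0.0016 and 3.7e-05). SPRY4, a feedback inhibitor of receptor signalling, had differences of -3.65 for Molm-14 and -2.55 for MV4-11 (adjusted p = 0.00028 and 0.014). It had too few reads for a test in SKNO-1, and in MV4-11 without the high-mitochondrial libraries. CCND1, which encodes cyclin D1, fell from 17.3 to 3.99 CPM in Molm-14 (adjusted p = 0.0016). In SKNO-1 its mean was 1.34 CPM with DMSO and 0.062 CPM, about the level of 1 read, with the drug (adjusted p = 3.8e-06). Its difference of -1.17 for MV4-11 was not called (adjusted p = 0.12). PTPN11, the gene of the drug's target, was lower by -1.0 on the log2 scale in Molm-14 (adjusted p = 0.0013). Its SKNO-1 difference of -0.64 (adjusted p = 0.037) lost its call without any 1 of the 6 SKNO-1 libraries. For MV4-11 it was -0.30 (adjusted p = 0.42), or -0.68 (adjusted p = 0.00021) without the high-mitochondrial libraries.

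Of 22 scaffolds and regulators of RAF, MEK and ERK, 21 were tested. With the drug 1 was higher and 7 lower in Molm-14, 1 and 4 in MV4-11, and 1 and 8 in SKNO-1, with list medians of -0.27, -0.021 and -0.24. Of all genes tested, 21.5% were higher and 25.2% lower in Molm-14, 5.85% and 8.03% in MV4-11, and 10.8% and 16.2% in SKNO-1, and the counts of this and the next lists stand beside these shares. In the fit under 10% mitochondrial reads 3 were higher and 11 lower, 1 and 13, and 2 and 16, where 26.6% and 32.1%, 8.85% and 19.6%, and 21.2% and 32.1% of all genes were. Over all libraries, 4 were called the same way in each line, and the fourth, after those named next, was the 14-3-3 gene YWHAE (-0.37, -0.28 and -0.39), named after its values were seen. KSR1, the scaffold that holds RAF, MEK and ERK together, was the higher gene in each line, with log2 differences of 1.16, 1.04 and 0.63 (adjusted p = 0.00016, 0.0016 and 0.022). Its call in SKNO-1 was lost without any 1 of 5 SKNO-1 libraries, at differences of 0.59 to 0.65. HSP90AA1, a chaperone of RAF kinases, fell in each line, with -1.10, -0.57 and -0.96 (adjusted p = 2.9e-07, 0.00074 and 2.2e-06). YWHAH, a 14-3-3 protein of the family that binds RAF, fell in each line too, with -0.50, -0.51 and -0.72 (adjusted p = 0.00075, 0.0026 and 5.3e-05). HSP90AB1, the other cytosolic HSP90, fell in Molm-14 (-1.0, adjusted p = 0.00046) and was not called in MV4-11 or SKNO-1 (-0.021 and -0.31), but was without the high-mitochondrial libraries (-0.36 and -0.31, adjusted p = 0.000862 and 2.2e-05). KSR1, HSP90AA1 and YWHAH were also called in the same direction in the 3 lines without the high-mitochondrial libraries.

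Among 7 kinases that ERK activates, 3 were higher in Molm-14, 2 higher and 1 lower in MV4-11, and 1 higher in SKNO-1, with list medians of 0.12, 0.16 and 0.16. These are 3, 3 and 1 of 7 called, where 46.7%, 13.9% and 27.1% of all genes were. The fit under 10% mitochondrial reads gave 3 higher and 2 lower in Molm-14, and 4 and 1 in SKNO-1. Of all genes 58.7% and 53.3% were called there. For MV4-11, left with 1 DMSO library, the list median was -0.14 in that fit. MKNK1, a kinase of the translation factor eIF4E, was higher in each line, by 0.97, 0.35 and 0.30 on the log2 scale (adjusted p = 2.2e-06, 0.036 and 0.043), although its call was lost without any 1 of the 6 SKNO-1 libraries in SKNO-1, without any 1 of 4 libraries in MV4-11, and in both lines with no filter on low values. RPS6KA2, a ribosomal S6 kinase, was higher in Molm-14 by 1.34 (adjusted p = 0.00096) and not called in MV4-11 or SKNO-1 (0.24 and 0.41), which became -0.071 (adjusted p = 0.86) and 0.41 (adjusted p = 0.039) without those libraries. RPS6KA4, a kinase that phosphorylates histones and CREB, was higher by 0.38 in Molm-14 (adjusted p = 0.0011) and 0.37 in MV4-11 (adjusted p = 0.0049), with 0.16 in SKNO-1 (adjusted p = 0.15, or 0.034 without those libraries).

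Of 12 kinases of the parallel MAP kinase pathways, 3 were higher and 3 lower in Molm-14, 1 higher in MV4-11, and 1 higher and 3 lower in SKNO-1, with list medians of -0.16, -0.030 and -0.22. That is 6, 1 and 4 of 12 called, again where 46.7%, 13.9% and 27.1% of all genes were. With libraries under 10% only, 4 were higher and 4 lower in Molm-14, and 2 and 9 in SKNO-1. Of all genes 58.7% and 53.3% were called in that fit. For MV4-11, left with 1 DMSO library, the list median was then -0.20. MAP2K6, which activates p38 kinases, was the gene that rose in each line, by 0.83, 0.65 and 0.66 (adjusted p = 0.00070, 0.015 and 0.0073), and its MV4-11 call was lost without any 1 of 4 MV4-11 libraries and held without the high-mitochondrial ones (0.41, adjusted p = 0.040). MAPK12, a p38 kinase, fell in Molm-14 (-0.50, adjusted p = 0.0012) and SKNO-1 (-0.66, adjusted p = 0.00025), with -0.17 for MV4-11 (adjusted p = 0.34). MAPK9, which encodes JNK2, fell in Molm-14 (-0.78, adjusted p = 0.010), a call that was lost without the high-mitochondrial replicate 2 with RMC-4550 (-0.48), and was not called in the other lines (-0.16 and -0.34). Without all 4 high-mitochondrial libraries MAPK9 was called lower in each line (-0.48, -0.59 and -0.34, adjusted p = 2.7e-06, 4.6e-05 and 4.1e-05).

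Upstream, 9 RAS-related GTPases gave 2 higher and 1 lower in Molm-14, and 1 of 8 tested lower in SKNO-1, while all 9 had adjusted p-values of 0.076 or more in MV4-11, with list medians of 0.088, -0.13 and -0.11. The 3 of 9 and the 1 of 8 stand beside 46.7% and 27.1% of all genes. Without the high-mitochondrial libraries 2 were higher and 3 lower in Molm-14 (26.6% and 32.1% of all genes). In SKNO-1 2 of 8 were then lower (32.1% of all genes). For MV4-11, left with 1 DMSO library, the list median was -0.20. RRAS, an R-Ras GTPase, rose by 0.94 in Molm-14 (adjusted p = 0.0014), with -0.18 for MV4-11, or 0.33 without those libraries (adjusted p = 0.050214), and -0.014 for SKNO-1. MRAS, which with SHOC2 forms a phosphatase complex that acts on RAF, rose by 0.57 in Molm-14 (adjusted p = 0.0028), with 0.38 for MV4-11 (adjusted p = 0.076) and 0.014 for SKNO-1. RHEB, the GTPase that activates mTORC1, fell in SKNO-1 (-0.41, adjusted p = 0.0034). Of 8 genes for the membrane processing of RAS, 1 was higher and 3 lower in Molm-14, 1 lower in MV4-11 and 2 lower in SKNO-1. Of all genes 46.7%, 13.9% and 27.1% were called, and the list medians were -0.19, -0.15 and -0.26. Without the high-mitochondrial libraries 1 was higher and 3 lower in Molm-14 (26.6% and 32.1% of all genes). In SKNO-1 4 were then lower (32.1% of all genes). For MV4-11, left with 1 DMSO library, the list median was -0.14. ICMT, the methyltransferase that completes the processing of the RAS tail, fell in Molm-14 (-1.16, adjusted p = 0.00018) and SKNO-1 (-1.02, adjusted p = 0.00098), with -0.31 for MV4-11 (adjusted p = 0.35), or -0.65 (adjusted p = 0.00023) without those libraries. ZDHHC9, part of the enzyme that palmitoylates NRAS and HRAS, fell in Molm-14 (-0.70, adjusted p = 0.00066). LYPLA1, which removes palmitate, fell there too (-1.04, adjusted p = 0.042), a call that was lost without any 1 of 4 Molm-14 libraries, with -0.58 without the high-mitochondrial replicate. Without all 4 such libraries LYPLA1 was called lower in each line (-0.58, -0.52 and -0.27, adjusted p = 2.1e-06, 0.000603 and 0.0013). The other called genes of these short lists, named after their values were seen, were RALB (-0.36), FNTB (0.70), MAP2K7 (0.26), MAPK13 (0.49) and MAPK8 (-0.23) in Molm-14, PDE6D (-0.53) and RPS6KA1 (-0.31) in MV4-11, and RCE1 (-0.35), MAPK7 (-0.44) and MAPK11 (-0.40) in SKNO-1.

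Across the 18 libraries the genes of the cascade fell into different patterns, given as Pearson correlations of the log2 values, which share libraries and line differences. NRAS and BRAF followed each other most closely (r = 0.94), then NRAS and MAP2K1 (r = 0.84) and BRAF and MAP2K1 (r = 0.83). HRAS ran against MAPK3 (r = -0.83) and ARAF (r = -0.81). The paralogs were not alike: r was -0.013 for NRAS and HRAS, 0.088 for ARAF and BRAF, and -0.014 for MAP2K1 and MAP2K2. After each group's mean was removed, r was -0.87 for NRAS and HRAS and 0.84 for ARAF and BRAF, over values in which the high-mitochondrial libraries lie farthest out.

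Among 11014 genes with a mean of at least 5 CPM, the patterns most like NRAS over the 18 libraries were those of HINT3, ZRANB1 and ILRUN (r = 0.99, 0.99 and 0.98). For MAPK3 they were ZBTB45, ALDH6A1 and EPN1 (r = 0.99 each). MAP2K1 was matched by PPM1A, SLC38A2 and NUS1 (r = 0.98 each), and BRAF by HK2, MYCBP2 and ANO6 (r = 0.98, 0.97 and 0.97). For ARAF the genes were INTS5, CDIP1 and LAPTM5 (r = 0.97, 0.97 and 0.96), and for HRAS NDUFB2, the locus ENSG00000279865 and SAMD1 (r = 0.98, 0.97 and 0.97). MAP2K2 had the loosest matches, SPATA2L, LGALS1 and RASSF7 (r = 0.93, 0.91 and 0.91). NDUFB2 overlaps BRAF on the opposite strand in GENCODE 29 and reached 34.7 CPM, and strand use in the counting is not given in the sources used here, so reads of the overlap could be split between them. Other overlapping genes were SYN1 at ARAF, at most 0.75 CPM, and SNAPC5 at MAP2K1, at most 7.85 CPM. Pseudogenes named after the 7 genes that were in the table had at most 5 reads.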

How the data were processed

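RNA-seq values were taken from 1 table deposited by the authors, with log2 values for 40184 Ensembl gene IDs in 18 samples. The submitters' processing notes name FastQC, STAR, limma and GRCh38; the annotation and strand setting are not given in the sources used here. The deposited log2 values had the form log2(reads + 0.5) per 1000000 reads of a scaled library, and when this was undone 100% of values up to 50 reads came out whole, within 0.1 read. CPM computed here are these reads per 1000000 reads of that library (scaling factors 0.890 to 1.11). Symbols matched 40069 IDs, and gene positions came from GENCODE 29 on GRCh38.

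The deposited log2 values of all 18 samples were fitted in limma 3.58.1 (R 4.3.3) with 1 coefficient per group, and contrasts were tested two-sided after eBayes with a trend. A gene entered if 3 or more samples reached 1 CPM, and entered a contrast if this held within its lines. Calls have a Benjamini-Hochberg adjusted p under 0.05 over all genes of the contrast. Fits without high-mitochondrial libraries left out the 4 libraries with at least 10% of reads from 23 mitochondrial genes. P-values measure the spread between these cultures. Lack of overlap between groups was described and not tested. Its share over all genes is given only for genes lower in SKNO-1 with RMC-4550 (35.4%). Reads without molecular identifiers are not independent molecules. The fit was tested on simulated data with known changes. All simulated libraries varied by the same rule and none stood apart like the high-mitochondrial libraries, so their effect on the calls was not covered.

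The 7 genes and the pathway lists were chosen with earlier results of these data known. All 7 are named; from each pathway list up to 3 genes called the same way in 3 lines and up to 3 with the largest change are named, as is PTPN11; for each of the 7, the 3 genes with the highest Pearson correlation are named. Same-numbered replicates did not deviate together throughout (r from -0.40 to 0.59, over 0.1 in 3 of 9 pairs). In MV4-11 differently numbered pairs reached 0.64 and -0.72, so these correlations cannot show whether replicates were paired there. Alternatives were log2(CPM + 1), other filters, median-ratio scaling, quantile normalization, fits of the lines compared only, a replicate block, eBayes without a trend, voom and library quality weights, the mitochondrial share as a covariate, and each library left out. Figures were drawn with matplotlib 3.10.9.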

Additional observations from a re-analysis of the deposited data

Results flagged for a closer look

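The response of MAP2K2 to RMC-4550 was called different between Molm-14 and MV4-11, lines with the same class of FLT3 genotype, over all libraries, but in 4 of 12 fits that left out a single library. In Molm-14 the log2 difference was 0.40 and in MV4-11 it was 0.016, and the test of the difference itself gave 0.38 (limma adjusted p = 0.047). Treated and DMSO libraries did not overlap in Molm-14 and overlapped in MV4-11. MV4-11 holds 3 of the 4 high-mitochondrial libraries, and without all 4 the difference was 0.31 (adjusted p = 0.10). The part of these libraries in the difference was not tested.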

How the results depend on the processing

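Calls among the 7 genes with RMC-4550 changed with the fit, and so did calls over all genes, given below. The part of the high-mitochondrial libraries in these changes was not tested. In Molm-14 the count of 2 became 4 with library quality weights, 4 with a covariate for the mitochondrial share, 4 without those libraries and 1 in the fit of that line alone. In MV4-11 the count of 0 became 5, 3 and 3 under the first 3 of these, and in SKNO-1 the count of 0 became 4 under each of the 4. With DMSO, the count of 4 between SKNO-1 and MV4-11 became 2 with no filter on low values. For the response of SKNO-1 against the others the count of 0 became 4 with library quality weights. The MAP2K2 call between the responses of Molm-14 and MV4-11 ended, for a count of 0, with no filter, in the fit without SKNO-1, with the replicate block (adjusted p = 0.054), with eBayes without a trend and without the high-mitochondrial libraries, and the count was 6 with library quality weights. The labels do not say what same-numbered replicates share, so the replicate block was an alternative only. It also ended the call of ARAF between SKNO-1 and MV4-11 (adjusted p = 0.052), for a count of 3 in place of 4. Over all genes, calls in Molm-14 ran from 5330 (line alone) to 8729 (library quality weights), beside 6522 of 13971 genes tested. In MV4-11 calls ran from 674 (line alone) to 7797 (library quality weights) beside 2045 of 14739. In SKNO-1 they ran from 3366 (no filter) to 8905 (library quality weights) beside 3969 of 14670. Without the high-mitochondrial libraries 58.7% of all genes were called in Molm-14 and 53.3% in SKNO-1. For the response of SKNO-1, calls over all genes ran from 378 to 5484 beside 486 of 12792. For that of Molm-14 against MV4-11 they ran from 1149 to 7938 beside 2620 of 13458. With DMSO between SKNO-1 and MV4-11 they ran from 5070 to 10906 beside 6449 of 15673. The highest of each range was with library quality weights.

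With single libraries left out, the count of the 7 genes ran from 1 to 2 in Molm-14, 0 to 1 in MV4-11 and 0 to 0 in SKNO-1. Over all genes calls ran from 5357 to 6526, 1177 to 3005 and 2792 to 3108. The count was 3 to 5 between Molm-14 and MV4-11 (6476 to 9578 of all genes) and 2 to 6 between SKNO-1 and MV4-11 (4505 to 8280). Between the responses of Molm-14 and MV4-11 it was 0 to 4 (1395 to 5873), where 4 was reached without replicate 2 of MV4-11 with DMSO.

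Every sign that turned belonged to a difference that was not called over all libraries. With the drug in Molm-14, the covariate gave HRAS -0.039 and the fit without the high-mitochondrial libraries -0.017. In MV4-11 these gave NRAS -0.30 and -0.37, and BRAF -0.26 and -0.39. There HRAS was 0.15 without those libraries, MAPK3 -0.052 with the covariate, MAP2K1 0.077 with quality weights and MAP2K2 -0.000633 with quantile normalization. In SKNO-1 ARAF was -0.0058 with quality weights, and MAPK3 0.030 with median-ratio scaling and 0.065 with quantile normalization. With DMSO, Molm-14 against MV4-11 gave HRAS -0.018 with quantile normalization and -0.13 with quality weights, and ARAF 0.15 with quality weights. SKNO-1 against Molm-14 gave MAP2K2 0.0012 with median-ratio scaling and 0.069 with quantile normalization. SKNO-1 against MV4-11 gave NRAS -0.37 and BRAF -0.12 with the covariate, -0.31 and -0.22 without those libraries, and MAP2K1 0.000482 with quality weights. The response of SKNO-1 gave MAP2K1 -0.11 with quality weights. For the response of Molm-14 against MV4-11, the covariate and the fit without those libraries gave NRAS 0.23 and 0.29, ARAF 0.18 and 0.097, BRAF 0.23 and 0.26, MAP2K1 0.063 and 0.086, and MAPK3 0.28 and 0.24. HRAS was -0.17 in the second of these, and MAPK3 0.017 with quantile normalization.

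Leaving out single libraries turned the sign of further differences. With the drug in Molm-14 the range was HRAS -0.017 to 0.29, ARAF -0.078 to 0.26 and MAPK3 -0.11 to 0.31. With the drug in MV4-11 the range was NRAS -0.063 to 0.48, BRAF -0.14 to 0.30, MAP2K1 -0.22 to 0.046 and MAP2K2 -0.055 to 0.091. With the drug in SKNO-1 the range was ARAF -0.074 to 0.095 and MAPK3 -0.072 to 0.016. For Molm-14 against MV4-11 with DMSO the range was HRAS -0.16 to 0.17 and ARAF -0.094 to 0.17. For SKNO-1 against MV4-11 with DMSO the range was MAP2K1 -0.26 to 0.0013. For the response of SKNO-1 against the others the range was NRAS -0.29 to 0.033. For the response of Molm-14 against MV4-11 the range was MAPK3 -0.26 to 0.16. Of 672 values of single genes under the other alternatives, 563 kept both direction and side of the threshold. With 1 MV4-11 library with DMSO under 10%, results of that line without the high-mitochondrial libraries rest on that library.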
